A study of Homo sapiens with 6 samples.

Results

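Homologous recombination and Fanconi repair were examined through 41 genes in HCT116 cells, a human colon cancer line, with and without forced expression of cytoglobin (CYGB). The genes were chosen by name: every row of the deposited transcript table whose symbol equalled one of the 41 names was taken, and the transcripts of each gene were summed. All 41 genes were found, of 40173 genes in the table, and all 41 had enough counts to be tested. The study compared 3 RNA-seq libraries of wild-type HCT116 cells given a control lentivirus (MOCK) with 3 libraries of HCT116 cells given a lentivirus with the CYGB coding region fused to FLAG. Both groups went through puromycin selection, were kept in RPMI medium with serum and were at the same range of passages, and no damaging agent is named for these libraries. Each group is therefore 1 selected population, in which CYGB was made from a viral construct and not from its own locus. The libraries are described as biological replicates, but nothing ties them to separate transductions, so p-values measure the spread between these libraries only.

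Homologous recombination repairs broken chromosomes by copying the sister chromatid. Kinases sense the break, nucleases trim its ends, and the BRCA proteins prepare the trimmed end to invade the intact copy. The Fanconi pathway handles crosslinks that tie the strands of DNA together. Its core complex attaches ubiquitin to FANCD2 and FANCI, and recombination then finishes the repair. Most of these genes are expressed with DNA replication in dividing cells, and inherited loss of many of them leads to cancer or to Fanconi anaemia.

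Library totals ran from 47193496 to 53531777 counts over transcripts with a gene. CYGB itself was at 10 to 34 counts in the MOCK libraries and at 27681 to 34935 counts in the CYGB libraries, so the labels held in all 6 libraries. Of 9 epithelial markers in the table, 8 were tested and none passed the threshold, and their summed level was 4122 to 4601 CPM (counts scaled to library size) in MOCK and 4192 to 4481 CPM in CYGB. KRT8, KRT18 and KRT19 made up most of this epithelial sum, with KRT8 at 1422 to 1974 CPM. CLDN4, VIL1 and CEACAM5 were near the floor, at no more than 1.65, 0.79 and 0.23 CPM in any library. VIL1 alone was higher in every CYGB library (11% of all genes tested did not overlap, in either direction). Of 14 markers of fibroblasts, blood and endothelium, 8 had fewer than 30 counts over all libraries together, and their summed level was 47.4 to 52.8 CPM in MOCK and 50.1 to 57.7 CPM in CYGB. COL1A1, a collagen gene, made up nearly all of that sum, at 44.3 to 53.8 CPM, and the highest value of any other marker in this list was 1.89 CPM (VWF). In bulk RNA of this kind, fewer cells of a state and less RNA per cell cannot be told apart.

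Most of the 41 genes showed little difference between the groups, and FANCB was the member that stood apart. Pathway genes outside the 41, among them DNA2 and USP1, are described further below. Calls used the study's own threshold, which asks for an unadjusted p of 0.01 or less together with a change of 2-fold or more either way, and the p came from edgeR's quasi-likelihood fit to the counts. FANCB passed it, on the higher side. Over all 19987 genes tested, 0.565% passed this threshold and 0.28% passed it on the higher side, so 1 of 41 is a small count against a small background. No member reached an adjusted p under 0.05 with edgeR (0.055% of all genes did). DESeq2 gave 1 such member, FANCB, against 0.543% of all genes. At an unadjusted p under 0.05 the edgeR count was also 1, against 4.54% of all genes.

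The bounds on the other genes were narrow for most. For 33 of 41 members the whole 95% interval of the fitted change lay within a 2-fold change in either direction, against 56% of all genes tested. The fitted log2 fold change of CYGB against MOCK was above 0 for 23 members and below 0 for 18, with a median of 0.018 beside -0.007 over all genes. Its median size without sign was 0.105 on the log2 scale for the members and 0.18 over all genes. All genes tested include genes down to a filter with a minimum count of 10, while the members had mean counts from 200.5 to 12233 a library. The part of depth in these contrasts was not tested. In 3 members the groups did not overlap: FANCB and FANCF were higher and BRCA1 was lower in every CYGB library, against 11% of all genes tested with groups that did not overlap.

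**Figure D1:**
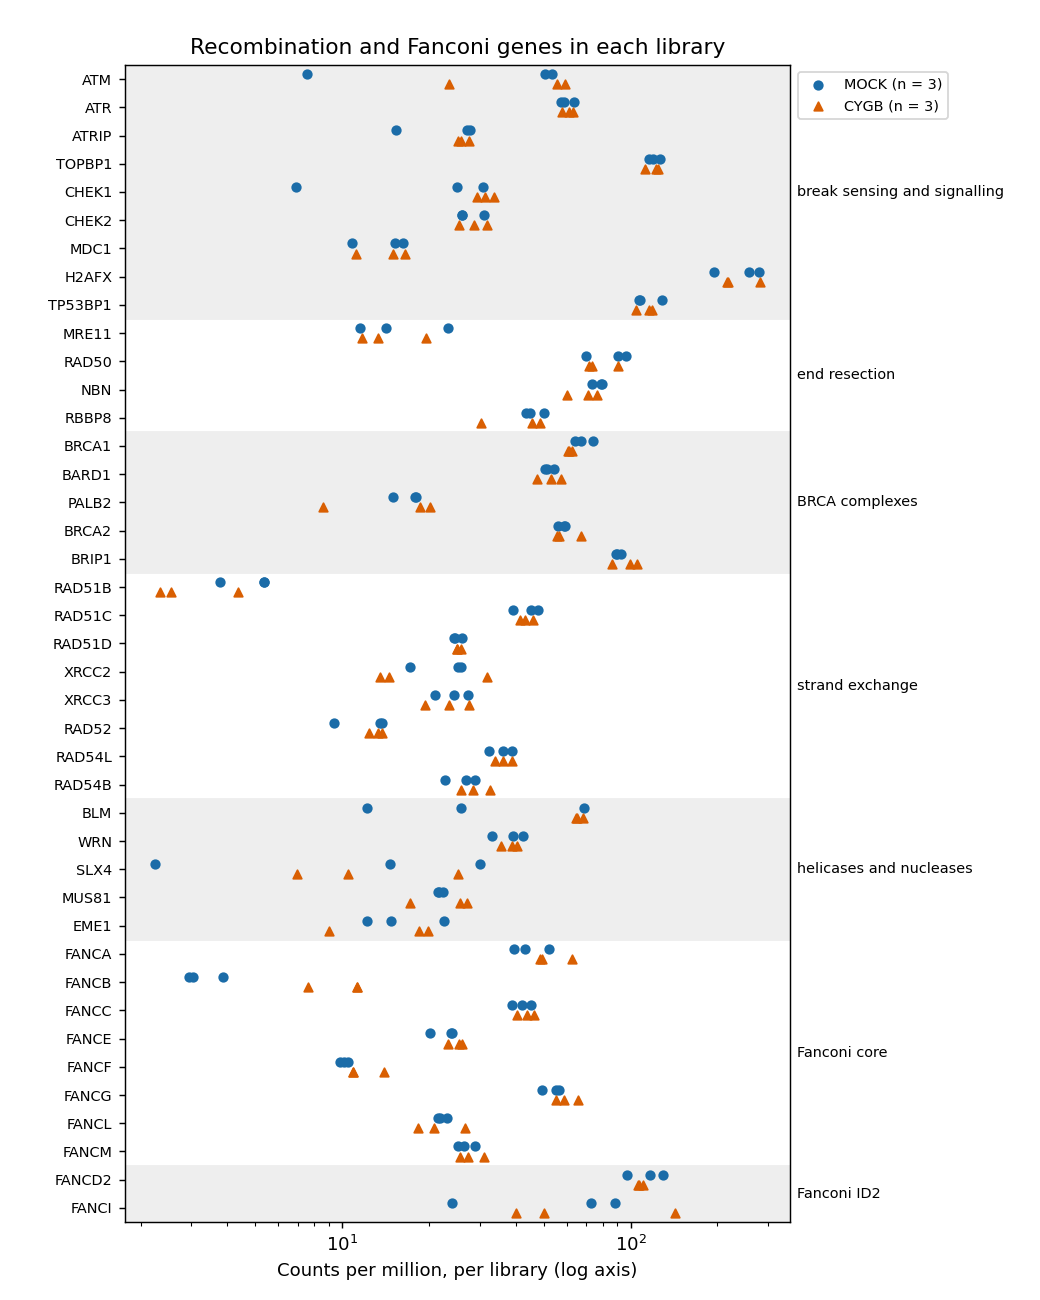
Level of each of the 41 genes in every library, in CPM on a log axis, with circles for the 3 MOCK libraries and triangles for the 3 CYGB libraries, grouped by role. Circles and triangles lie together for most genes, FANCB has all 3 triangles to the right of its circles, and ATM, CHEK1, BLM, SLX4 and FANCI have 1 or more libraries far from the others.

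The genes differed far more among themselves than between the groups. Per length, on the TPM scale (transcript counts divided by transcript length and scaled to library size), H2AFX was the most abundant, at 295 ± 50.9 TPM in MOCK and 295 ± 47.1 TPM in CYGB (SD, n = 3). H2AFX encodes the histone variant that is phosphorylated around breaks. Next came RAD51C at 73.5 ± 21.2 TPM and FANCA at 63.6 ± 12.6 TPM in MOCK, which did not differ from each other beyond their spread. The order per length rests on how reads were divided among transcripts of different lengths, which is not given. FANCD2 was below FANCA per length, at 54.75 TPM in MOCK, but above it in CPM, at 114.6 against 44.9 in MOCK. The lowest members per length were FANCF at 6.64 ± 0.20 TPM, RAD51B at 6.11 ± 1.66 TPM, SLX4 at 5.67 ± 4.66 TPM and FANCB at 2.89 ± 0.79 TPM in MOCK. FANCB was at 7.66 ± 1.68 TPM in CYGB, a level within the spread of SLX4 and FANCF there (6.07 ± 2.82 and 7.95 ± 1.20 TPM).

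The Fanconi core complex is the ubiquitin ligase of the crosslink pathway, and FANCB is a structural subunit of its catalytic part, beside FANCL, the ligase itself. FANCB (ENSG00000181544, chrX:14835961-14873069 in GRCh38, minus strand) had 139, 204 and 156 counts across MOCK replicates 1 to 3, against 386, 571 and 591 across CYGB replicates 1 to 3. The lowest CYGB library lay above the highest MOCK library. The mean level was 3.28 ± 0.51 CPM in MOCK cells against 10.0 ± 2.08 CPM in CYGB cells (SD, n = 3), a fitted ratio of 3.06. The log2 fold change was 1.61 (standard error 0.23, 95% interval 1.06 to 2.17), with an unadjusted p of 0.000359 and, after Benjamini-Hochberg adjustment over all genes, an adjusted p of 0.341 in edgeR. FANCB passed the threshold of the methods under 12 of 12 alternative analyses, and leaving out any 1 library left the log2 fold change between 1.52 and 1.78. The adjusted p was less settled, from 1.55e-07 with DESeq2 to 0.911 with the replicate number as a block.

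The additional FANCB counts were assigned to 1 of its transcripts. FANCB-203 (ENST00000452869, protein coding) held 40, 8 and 69 counts in MOCK and 354, 520 and 486 in CYGB, which is 23.4% of the gene's counts in MOCK and 87.9% in CYGB. FANCB-202 held 54, 84 and 66 counts in MOCK and 25, 35 and 45 in CYGB, so it was lower where the gene was higher. Tested as a transcript, FANCB-203 passed the threshold of the methods, with a log2 fold change of 3.51 ± 0.82 (standard error), at an edgeR p that became 0.718 once adjusted over transcripts. No 150-base window of FANCB-203 is absent from the other transcripts of the gene (0% unique), so its counts rest on how reads were divided among isoforms, and it passed under 7 of 12 alternatives.

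None of the genes around FANCB passed the threshold. All genes within 500 kb were taken, a window set after the FANCB values were seen, and 6 were tested, FANCB included. MOSPD2 starts next to FANCB on the opposite strand, at position 14873441, and had 993, 1111 and 1121 counts in MOCK and 1098, 1184 and 1078 in CYGB. Its log2 fold change was 0.04 (standard error 0.11), and its groups overlapped. ASB9, PIGA, NPM1P9 and VEGFD also overlapped between groups, with VEGFD the largest at 0.73 (standard error 0.59).

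The promoter of FANCB is shown because it is the promoter of the 1 gene called. It is given from 250 bases before to 50 bases after the RefSeq start, on the minus strand of GRCh38.p14, chrX:14873020-14873319.
FANCB: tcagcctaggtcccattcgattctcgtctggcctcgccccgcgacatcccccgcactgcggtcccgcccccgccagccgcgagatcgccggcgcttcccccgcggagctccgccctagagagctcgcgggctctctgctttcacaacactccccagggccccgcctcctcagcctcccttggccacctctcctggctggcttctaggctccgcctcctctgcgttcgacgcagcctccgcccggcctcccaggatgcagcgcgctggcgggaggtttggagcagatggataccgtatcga
No letters are capitals in it because none of the motifs searched was found in this window. The motifs were an E2F-like set (TTTCCCGC, TTTGGCGC, TTTGCCGC and TTTCGCGC) and a CHR-like motif (TTTGAA), on both strands, which are bound in textbook accounts by factors that time genes to replication and to mitosis.

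Promoters of 5 other members did hold an E2F-like match, and a stretch of 50 bases of each is shown 5′ to 3′ on the strand of its gene in GRCh38.p14, with the match in capitals. The stretches lie at chr3:10026414-10026463 (plus strand), chr3:133661920-133661969 (minus), chr7:152676092-152676141 (minus), chr16:89816791-89816840 (minus) and chr9:95317853-95317902 (minus), in the order printed.
FANCD2: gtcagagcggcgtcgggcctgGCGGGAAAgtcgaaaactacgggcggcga
TOPBP1: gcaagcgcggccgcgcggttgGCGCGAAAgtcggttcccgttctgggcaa
XRCC2: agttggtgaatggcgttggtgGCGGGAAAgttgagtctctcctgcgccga
FANCA: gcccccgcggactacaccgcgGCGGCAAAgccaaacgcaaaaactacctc
FANCC: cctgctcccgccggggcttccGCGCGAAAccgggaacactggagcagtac
These are 5 of the 37 members with a RefSeq promoter (13.5%), beside 3.32% of 35116 promoters of the same length. Among the 22198 promoters of coding genes the share was 4.1%. The match lies close to the RefSeq start in FANCD2 (position -2) and TOPBP1 (position -7). The CHR-like motif was in 5 of 37 members (13.5%), beside 15.2% of all promoters and 12.4% of those of coding genes. The window searched for BRCA1, chr17:43170278-43170577, lies away from the start of its transcript BRCA1-203 at position 43125483. No promoter was listed for NBN, RAD54B, WRN and FANCI. A match of letters is a description and not a site, and the 5 genes with one had log2 fold changes between -0.18 (XRCC2) and 0.25 (FANCA), with overlapping groups in each.

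The other core genes lay close to one another between the groups, and 7 of the 8 core genes had a fitted change above 0. FANCF, an adaptor of the complex, was at 10.2, 10.5 and 9.8 CPM in MOCK and at 14.0, 10.9 and 10.9 CPM in CYGB. All 3 CYGB libraries were above the MOCK libraries, but 2 of them by little, and the log2 fold change was 0.23 ± 0.15 (standard error), with 0.963 as the adjusted p in edgeR. FANCA, FANCG, FANCE, FANCM and FANCC had log2 fold changes of 0.25, 0.16, 0.14, 0.06 and 0.05, and FANCL of -0.02. FANCM is the translocase that brings the complex to DNA, and FANCA, FANCG, FANCC and FANCE are further subunits of the complex. For all core genes but FANCB the 95% interval stayed within a 2-fold change.

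FANCD2 and FANCI form the clamp that the core complex ubiquitinates. FANCD2 was at 97.4, 117.0 and 129.4 CPM in MOCK and at 106.2, 110.8 and 107.2 CPM in CYGB. The CYGB libraries lay inside the range of the MOCK libraries, with a log2 fold change of -0.08 (standard error 0.12). FANCI was at 72.9, 88.6 and 24.1 CPM in MOCK and at 142.5, 39.9 and 50.3 CPM in CYGB. Its highest and lowest libraries were 5.91-fold apart and belonged to different groups, and its log2 fold change of 0.33 had a standard error of 0.65.

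**Figure D2:**
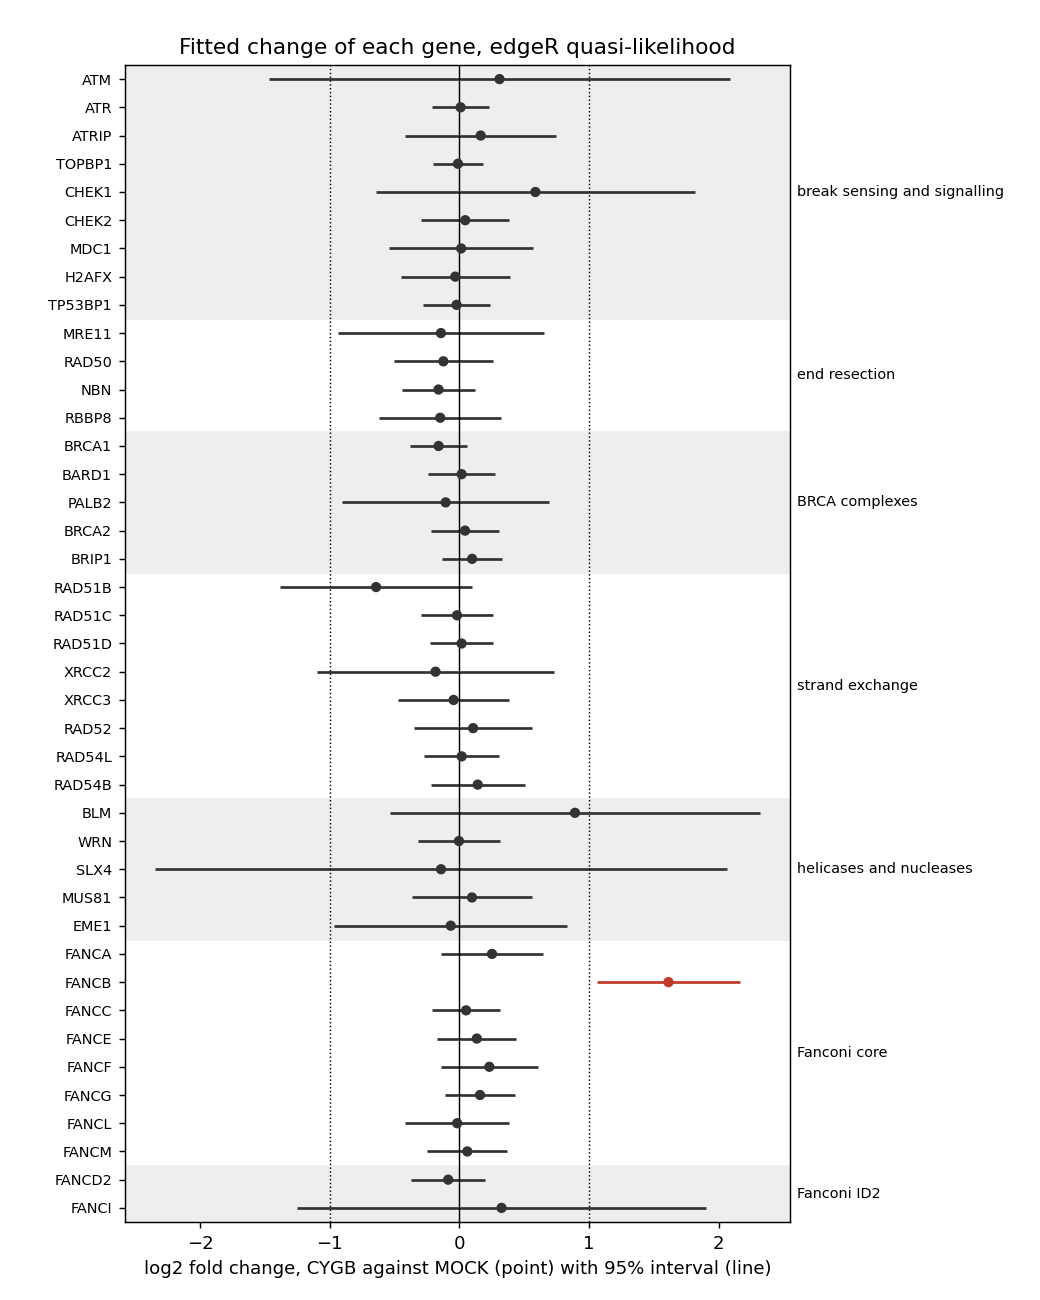
Fitted log2 fold change of CYGB against MOCK for each gene (point) with its 95% interval (line) from edgeR's quasi-likelihood fit on 3 and 3 libraries; dotted lines mark a 2-fold change and red marks the gene past the threshold of the methods. FANCB is the gene whose interval lies wholly above the upper dotted line, at 1.61 (1.06 to 2.17), and 33 of 41 intervals lie between the dotted lines.

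Break sensing and signalling gave 9 genes, with log2 fold changes from -0.03 to 0.59 and 7 intervals within a 2-fold change. ATR, the kinase that answers single-stranded DNA at stalled forks, was at 58.7, 57.6 and 63.8 CPM in MOCK and at 62.9, 60.9 and 57.6 CPM in CYGB. All 6 libraries lay within a 1.11-fold range, and the log2 fold change was 0.01 (standard error 0.09). TOPBP1, which activates ATR, was as close, at -0.01 (standard error 0.08). TP53BP1, which protects ends from resection, was at 107.3, 108.1 and 128.8 CPM in MOCK and at 118.8, 104.4 and 116.2 CPM in CYGB, with a log2 fold change of -0.02 (standard error 0.11). H2AFX was at 279.1, 257.5 and 193.9 CPM in MOCK and at 281.3, 217.9 and 216.0 CPM in CYGB, with overlapping groups and a log2 fold change of -0.03 (standard error 0.17). ATRIP, the partner of ATR, CHEK2, the effector kinase of ATM, and MDC1, the adaptor that binds phosphorylated H2AFX, had log2 fold changes of 0.17, 0.05 and 0.01.

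ATM and CHEK1 were the exceptions in this group, with low libraries in 1 or both groups. ATM, the kinase that answers broken ends, was at 7.5, 53.6 and 50.5 CPM in MOCK and at 59.2, 55.8 and 23.4 CPM in CYGB. MOCK replicate 1 was the lowest and CYGB replicate 3 the next, and the other 4 libraries lay close together. The log2 fold change was 0.31 (standard error 0.73), and without MOCK replicate 1 it was -0.18. CHEK1, the effector kinase of ATR, was at 6.9, 30.7 and 25.0 CPM in MOCK and at 31.2, 33.6 and 29.4 CPM in CYGB. Only MOCK replicate 1 was low, and the log2 fold change of 0.59 (standard error 0.51) ranged from 0.17 to 0.97 as each library was left out. CHEK1 overlaps STT3A on the same strand, which had 9826 to 11886 counts in MOCK and 12935 to 15173 in CYGB, and reads shared between them cannot be told apart here.

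The end resection genes were the 4 that start the processing of a broken end, MRE11, RAD50 and NBN of the nuclease complex and RBBP8 (CtIP), its activator. Their log2 fold changes were all below 0 and small, at -0.14, -0.12, -0.16 and -0.15. The smallest unadjusted p among them was 0.212 from edgeR's quasi-likelihood test, and all 4 intervals lay within a 2-fold change.

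The BRCA genes link the processing of a broken end to strand exchange. BRCA1 (chr17:43044295-43170245, minus strand), the scaffold that promotes resection and recruits PALB2, was at 64.4, 67.4 and 74.1 CPM in MOCK and at 60.4, 61.1 and 62.8 CPM in CYGB. Every CYGB library was below every MOCK library, by little, with a log2 fold change of -0.16 (standard error 0.09, 95% interval -0.38 to 0.06, edgeR's adjusted p 0.963). BRCA1 overlaps a noncoding gene, AC060780.1, on the same strand, with 556 to 811 counts a library. BRCA2, which acts after BRCA1 and PALB2 at the trimmed end, was at 59.0, 56.2 and 58.8 CPM in MOCK and at 56.5, 67.6 and 55.5 CPM in CYGB, with a log2 fold change of 0.04 (standard error 0.11). PALB2, the bridge between BRCA1 and BRCA2, was at 17.8, 15.0 and 18.1 CPM in MOCK and at 8.6, 18.7 and 20.1 CPM in CYGB. The groups overlapped for BRCA2 and PALB2, and CYGB replicate 1 was the low library of PALB2, whose log2 fold change was -0.10 (standard error 0.33). BARD1, the partner of BRCA1 in its ubiquitin ligase, and BRIP1, a helicase bound to BRCA1, had log2 fold changes of 0.02 and 0.10.

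Strand exchange gave 8 genes, with log2 fold changes from -0.64 to 0.14. RAD51B, which acts early in strand exchange, was at 5.3, 3.8 and 5.3 CPM in MOCK and at 2.3, 2.6 and 4.4 CPM in CYGB. CYGB replicates 1 and 2 were below all MOCK libraries and CYGB replicate 3 was among them, so the groups overlapped. The log2 fold change was -0.64 (standard error 0.30, 95% interval -1.38 to 0.10, edgeR's adjusted p 0.963), and it stayed between -0.97 and -0.48 as each library was left out. RAD51C, found in the complexes of RAD51B and of XRCC3, was at 47.6, 45.1 and 39.0 CPM in MOCK and at 45.8, 42.9 and 41.4 CPM in CYGB, with overlapping groups and a log2 fold change of -0.02 (standard error 0.11). RAD51D, XRCC2 and XRCC3, of the same complexes, were at 0.02, -0.18 and -0.04. RAD52, which anneals single strands, and the motor proteins RAD54L and RAD54B, which help strands to search and exchange, were at 0.11, 0.02 and 0.14. RAD54B had 1165 to 1423 counts in MOCK and 1310 to 1640 in CYGB. It overlaps FSBP on the same strand, with 1093 to 1624 counts in MOCK and 1059 to 1682 in CYGB, and reads shared between them cannot be told apart here. RAD51D was the steadiest member, with its 6 libraries within 1.06-fold.

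The helicases and nucleases undo or cut the joint molecules that recombination makes, and 3 of these 5 genes had an interval within a 2-fold change. BLM (chr15:90717327-90816165, plus strand), the helicase that dissolves crossed-over strands, was at 25.8, 12.2 and 68.9 CPM in MOCK and at 64.7, 68.6 and 65.1 CPM in CYGB. MOCK replicate 3 was as high as the CYGB libraries and the other MOCK libraries were low, so the groups overlapped. The log2 fold change was 0.89 (standard error 0.59, 95% interval -0.54 to 2.32, edgeR's adjusted p 0.963). Without MOCK replicate 3 it was 1.80 and BLM passed the threshold of the methods, with edgeR's adjusted p at 0.480, and over 12 alternatives the adjusted p ran from 0.480 to 1.00. MUS81 and EME1, the partners in a junction nuclease, were at 0.10 and -0.07. On the opposite strand MUS81 overlaps CFL1 (45358 to 52060 counts) and EME1 overlaps LRRC59 (22531 to 26881 counts). The use of strand in counting is not given, so reads of these neighbours cannot be told apart from theirs here. EME1-203, a transcript with a retained intron, held 49.4% of the EME1 counts in MOCK and 40.5% in CYGB. SLX4, the scaffold that holds several nucleases, had 106, 1585 and 756 counts in MOCK and 352, 1279 and 549 in CYGB, a 13.4-fold range at equal library size. Its log2 fold change of -0.14 had a standard error of 0.91, so these libraries bound its change only between -2.35 and 2.06.

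WRN, the helicase and exonuclease lost in Werner syndrome, did not differ as a gene beyond its spread, but the counts assigned to its transcripts did. The gene had 1566, 2073 and 2184 counts in MOCK and 1958, 2055 and 1862 in CYGB, with overlapping groups and a log2 fold change that rounds to 0.00 (standard error 0.13). WRN-203, a transcript with a retained intron (ENST00000521620), was at 760, 1060 and 900 counts in MOCK and at 0, 0 and 2 counts in CYGB. It held 46.7% of the WRN counts in MOCK (2720 of 5823, exact 95% interval 45.4 to 48.0%) and 0.0340% in CYGB (2 of 5875, 0.00412 to 0.123%). These intervals pool the reads of each group and cover counting error only, not the spread between libraries. WRN-201, the protein coding transcript, was at 775, 979 and 1225 counts in MOCK and at 1926, 2015 and 1834 in CYGB. The sum of both was 1535, 2039 and 2125 counts in MOCK and 1926, 2015 and 1836 in CYGB, which overlap, so the counts of WRN-203 in MOCK were matched by counts of WRN-201 in CYGB. WRN-203 passed the threshold of the methods under 12 of 12 alternatives, with an unadjusted p of 0.000175 in edgeR and an adjusted p of 0.142 (1.15e-18 to 0.995 over the alternatives). Of the 150-base windows of WRN-203, 8.1% occur in no other transcript of the gene. Its counts therefore rest largely on how reads were divided among isoforms, and whether that step made the difference was not tested.

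The table also allows the transcripts of these genes to be compared. Of 486 transcripts in the table, 264 were tested and 3 passed the threshold of the methods, FANCB-203, WRN-203 and FANCD2-201, beside 1.02% of all 66609 transcripts tested. They belong to 3 of the 41 members, beside 3.03% of the 19602 genes with a tested transcript, while DESeq2 gave 9 members, beside 6.6% of the genes it tested by transcript. Of 37 members with at least 2 tested transcripts, 20 had the same most abundant transcript in all 6 libraries, beside 54.6% of all such genes. In 5 of the 37 (FANCA, FANCB, FANCD2, FANCL and FANCM) the most abundant transcript was another one in CYGB than in MOCK, beside 15.7% of all such genes.

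FANCD2-201 held 771, 253 and 457 counts in MOCK and 2053, 4262 and 3326 in CYGB, without overlap, or 8.49% and 58.0% of the gene. FANCD2-202 held 1389, 4592 and 5186 counts in MOCK and 2441, 386 and 1582 in CYGB, which overlap, or 64.0% and 26.5% of the gene. The fitted log2 fold change of FANCD2-201 was 2.67 ± 0.54 (standard error), and edgeR's p was 0.498 after adjustment over transcripts. It passed the threshold of the methods under 9 of 12 alternatives, and not with the replicate block, without MOCK replicate 3 or without CYGB replicate 2. Of its 150-base windows 16.9% are unique within the gene, and of those of FANCD2-202, 0%.

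FANCM showed the same kind of exchange with no call. FANCM-202 held 1175, 1036 and 699 counts in MOCK and 0, 1078 and 0 in CYGB, while FANCM-201 held 25, 169 and 197 counts in MOCK and 1250, 277 and 1243 in CYGB. CYGB replicate 2 was like the MOCK libraries in FANCM-202, and the gene sum was 1251 to 1488 counts in MOCK and 1290 to 1582 in CYGB. In FANCA the leading transcripts lay close together: FANCA-230 held 22.25% of the gene in MOCK and 20.8% in CYGB, and FANCA-202 held 20.8% and 22.1%. In FANCL they lay further apart in MOCK than in CYGB: FANCL-201 held 49.5% of the gene in MOCK and 36.0% in CYGB, and FANCL-202 held 35.0% and 40.4%.

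**Figure D3:**
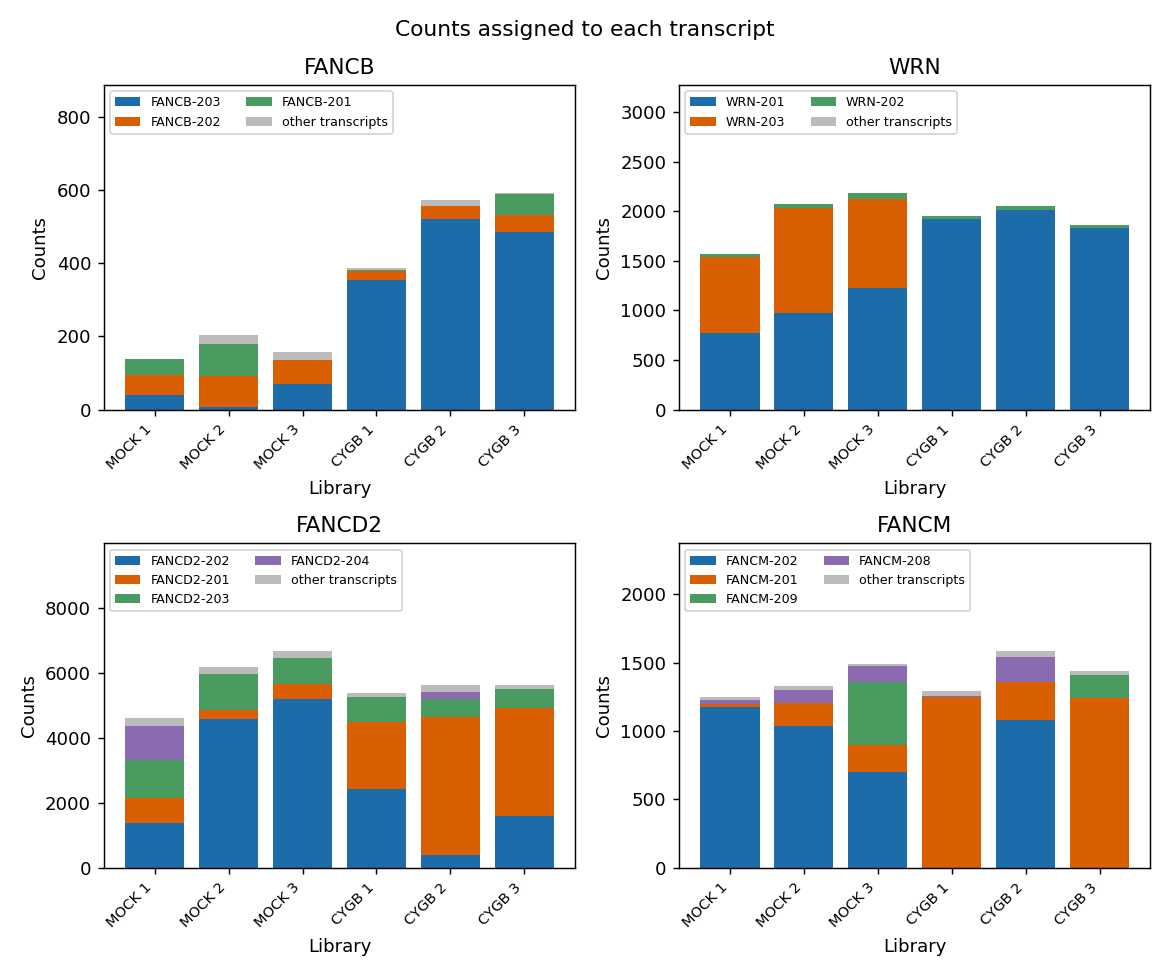
Counts assigned to each transcript of FANCB, WRN, FANCD2 and FANCM in the 6 libraries, as stacked bars of raw counts, with up to 4 transcripts coloured and the rest in grey. The height of the bars differs between groups for FANCB, while for WRN, FANCD2 and FANCM the colours change and the heights overlap.

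The spread between libraries was small for most members and large for a few. In 25 of 41 members all 6 libraries lay within a 1.5-fold range, beside 35.3% of all genes tested. The median range was 1.42-fold for the members and 1.79-fold over all genes. The genes behind both comparisons include many with fewer counts than the members, and the part of depth was not tested. In 6 members the range was over 3-fold: SLX4, ATM, FANCI, BLM, CHEK1 and FANCB. MOCK replicate 1 was lowest for SLX4, ATM and CHEK1, MOCK replicate 2 for BLM and MOCK replicate 3 for FANCI. Some transcripts with wide gaps are named here after their values were seen. ATM-201 was at 0 counts in MOCK replicate 1 and at 924 to 2503 counts in the other 5 libraries. FANCI-212, a transcript with a retained intron that held 74.9% of the FANCI counts in MOCK, ran from 665 to 3583 counts in MOCK and from 407 to 5777 in CYGB. Whether the counting step made these gaps was not tested. Summed over the 41 members, the level was 1833.2, 1951.8 and 1909.2 CPM in MOCK and 2113.2, 1961.1 and 1805.5 CPM in CYGB, with overlap.

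**Figure D4:**
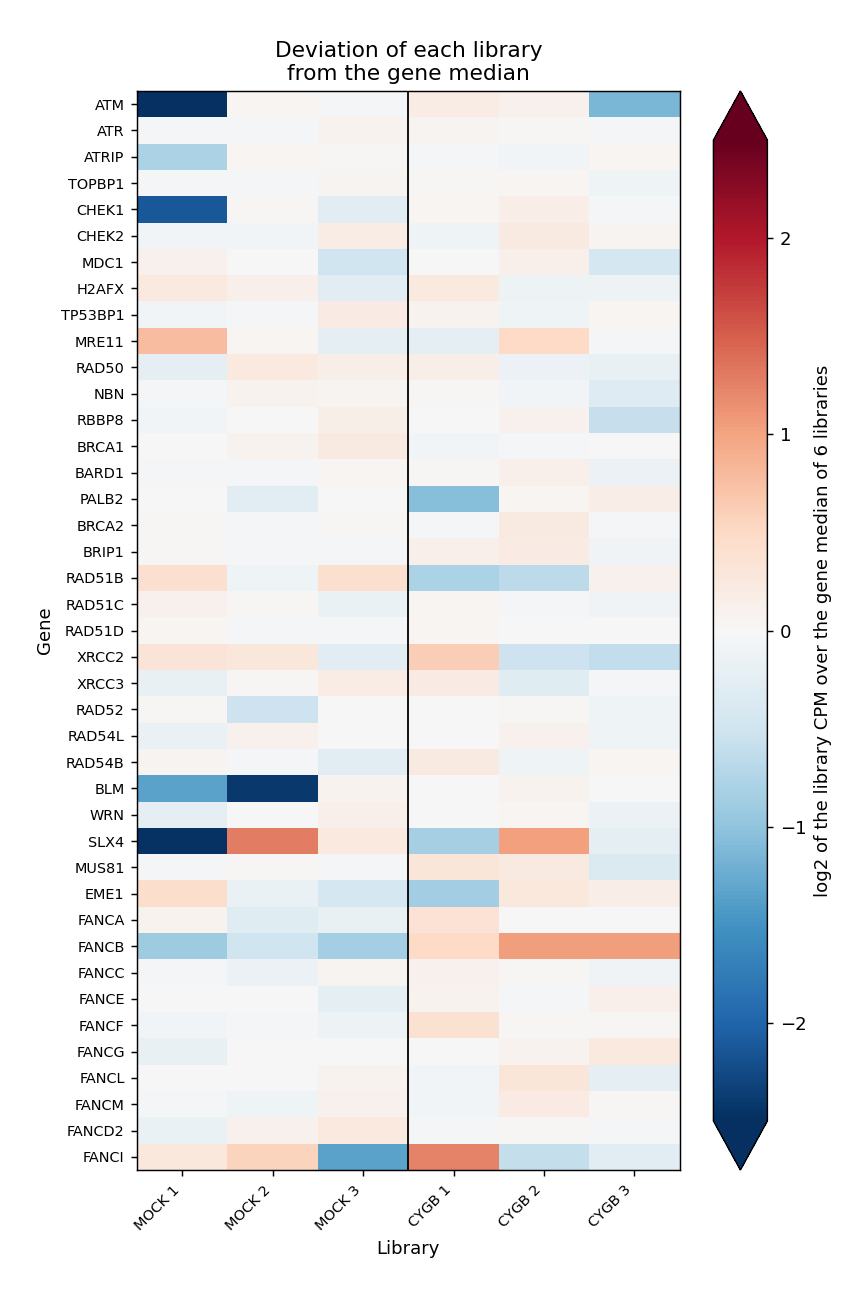
Deviation of each library from the median of the 6 libraries of that gene, as log2 of the ratio of CPM values, with MOCK to the left and CYGB to the right of the line; colours saturate at the ends of the scale. FANCB is blue in all 3 MOCK libraries and red in all 3 CYGB libraries, while the dark cells of ATM, CHEK1, SLX4, BLM and FANCI fall in 1 or more libraries. ATM is low in 1 library of each group, BLM in 2 of the MOCK libraries and CHEK1 in 1 of them.

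The rest of the pathway was taken from a list of 61 further recombination, crosslink repair and damage signalling genes, all of them tested. None passed the threshold of the methods on the higher side and 1, DNA2, passed it on the lower side, beside 0.285% of all genes tested. No gene reached an adjusted p under 0.05 with edgeR, and 3 had an unadjusted p under 0.05 (4.54% of all genes tested did). With DESeq2 the adjusted p was 1.13e-07 for USP1, 0.0131 for DNA2 and 0.184 for RIF1, where 0.543% of all genes were under 0.05. How many of the 61 were under 0.05 with DESeq2 was not counted. Groups did not overlap for 4 genes on the higher and 7 on the lower side, where 11% of all genes tested did not overlap, and the median log2 fold change was -0.05.

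DNA2, a nuclease that resects ends over long stretches, was at 8.70, 3.09 and 2.82 CPM in MOCK and at 1.19, 0.79 and 1.26 CPM in CYGB. All CYGB libraries were below all MOCK libraries, and MOCK replicate 1 was far above the others. The log2 fold change was -2.17 ± 0.52 (standard error; edgeR's adjusted p 0.963), and -1.45 without MOCK replicate 1. The call held under 8 of 12 alternatives, and was lost without any 1 of the CYGB libraries and with the transcripts that carry no gene included. The adjusted p ran from 0.0131 to 1.00 over these alternatives.

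USP1, the enzyme that takes ubiquitin off FANCD2, was at 111, 110 and 114 CPM in MOCK and at 74.9, 70.8 and 64.8 CPM in CYGB. The groups lay far apart beside their spread, with a log2 fold change of -0.67 (standard error 0.08) and an unadjusted p of 0.000193, but the ratio was short of the threshold of the methods under all 12 alternatives. In edgeR the adjusted p of USP1 was 0.241, and it ran from 1.13e-07 to 0.917 over the alternatives. RIF1, which works with TP53BP1 to protect ends, was at 124, 96.0 and 134 CPM in MOCK and at 83.9, 75.9 and 80.8 CPM in CYGB, without overlap. Its log2 fold change was -0.56 ± 0.14 (standard error), with 0.963 as edgeR's adjusted p.

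Neighbouring processes gave no calls. Of 11 end joining genes, the rival route of break repair, 0 passed the threshold, with a median log2 fold change of 0.03 and no gene at an unadjusted p under 0.05. Of 20 replication genes of S phase, 0 passed, 2 had an unadjusted p under 0.05 by edgeR's test (4.54% over all genes), and 5 were higher in every CYGB library (11% of all genes did not overlap, in either direction), with a median log2 fold change of 0.10. Their summed level was 4622 to 4895 CPM in MOCK and 5015 to 5308 CPM in CYGB, and whether this difference has a part in the levels of the recombination genes was not tested. Of 20 p53 target genes, which ATM, ATR and CHEK2 act on through p53, 0 passed. None had an unadjusted p under 0.05 by edgeR's test, and the median log2 fold change was -0.08. In 1 of them, ZMAT3, every CYGB library was above every MOCK library (11% of all genes did not overlap, in either direction). Single changes ran from -2.51 (MDM2) to 0.73 (CDKN1A), both with overlapping groups. MDM2 had 15015 counts in MOCK replicate 1 and 969 to 1211 in the other libraries.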

How the data were processed

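The authors deposited raw transcript counts from paired-end libraries, not normalized, in 1 table. The submitters' processing notes name HISAT2, DESeq2 and hg19, but of 151393 transcripts found in GENCODE 29, 99.6% have its GRCh38 position, so coordinates are those of GRCh38. The counting tool, its use of strand and the division of reads among isoforms are not given in the sources used here. Transcripts without a gene (21225 of 172678, 18.6 to 19.5% of counts) were left out of totals and tests.

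Counts were summed per gene, filtered with filterByExpr (minimum count 10), scaled by TMM, and fitted and tested by quasi-likelihood (glmQLFit, glmQLFTest; edgeR 4.0.16, R 4.3.3), CYGB against MOCK, without a block, over all genes and again over all transcripts. Adjusted p-values are Benjamini-Hochberg values over all features tested. Genes had a common biological coefficient of variation of 36.6% and transcripts one of 78.9%. The steps were tested on simulated data. No pair of libraries differed by a chi-square below 102 per gene, so no library was a copy of another and each was counted as 1 replicate. This check does not show that the replicates are independent. Pairs within a group were not always closer: MOCK 1 and MOCK 3 were at 128, while MOCK 3 and CYGB 2 were at 104. Unique windows were counted on GENCODE 29 transcript sequences, and promoters came from RefSeq for 37 of 41 genes (H2AFX under its current symbol H2AX).

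Values in every library were given for members past a threshold, with groups that did not overlap or with the 6 largest changes, and for 11 members chosen for their role; SLX4 was added for its spread and WRN for its transcript. Transcripts were named when past the threshold or leading in 1 group only. The members and lists were chosen with earlier results of these data known. Alternatives were DESeq2's size factors, DESeq2 1.42.0, no filter, a minimum mean of 50 counts, a replicate block, each library left out, and the transcripts without a gene included (added after the data were seen). The result of 1 gene of the further pathway list is not reported here.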

Additional observations from a re-analysis of the deposited data

How the results depend on the processing

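The members past the threshold of the methods numbered 1 in 11 of the 12 alternatives and ran from 1 to 2 as each library was left out, BLM joining FANCB without MOCK replicate 3. The members with an adjusted p under 0.05 went from 0 to 1 with DESeq2. The members with a transcript past the threshold went from 3 to 9 with DESeq2 and to 1 with the replicate block, and ran from 2 to 7 as each library was left out (7 without MOCK replicate 1, 5 without MOCK replicate 2). The other pathway genes past the threshold went from 1 to 0 with the transcripts that carry no gene included, and ran from 0 to 2 as each library was left out, 2 without MOCK replicate 2 and 0 without any 1 CYGB library. The causes of these shifts were not tested.

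Same-numbered libraries did not deviate together (correlations of 0.0322, 0.00672 and 0.0324), so the numbers pair nothing. With the replicate block the log2 fold change of FANCB was 1.60, and those of SLX4 (0.26) and WRN (0.0033) changed sign, as that of WRN did with DESeq2's size factors (5.86e-05).

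Of 17 members with values given in every library, 6 kept their direction under all 12 alternatives. The other 11 changed sign when a library was left out, over -0.0956 to 0.0436 (RAD51C), -0.175 to 0.669 (ATM), -0.0197 to 0.0567 (ATR), -0.171 to 0.0774 (H2AFX), -0.191 to 0.0111 (FANCD2), -0.457 to 0.677 (FANCI), -0.0679 to 0.0704 (TP53BP1), -0.316 to 0.191 (PALB2), -0.847 to 0.745 (SLX4), -0.0969 to 0.0782 (WRN) and -0.0549 to 0.0990 (BRCA2) on the log2 scale. The mean counts of the members ran from 200.5 to 12233 a library, and the effect of depth was not tested.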
